A study of Mus musculus with 10 samples.

Results

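The 8 genes described here are forkhead transcription factor genes known from the mesenchyme and lining of the embryonic face: Foxc1, Foxc2, Foxd1, Foxf1, Foxf2, Foxp1, Foxp2 and Foxe1. They were taken by symbol from a table of RNA-seq read counts with 35542 genes, where each symbol matched 1 row. RNA was measured in the frontonasal prominence (FNP), a swelling of the embryonic head from which forehead and nose arise, taken from mouse embryos of the FVB/NJ strain at E10.5. The 4 MD1 libraries came from embryos of genotype Smchd1 MD1/MD1, homozygous for MommeD1, a loss-of-function allele of the chromatin repressor gene Smchd1 that was found in a mutagenesis screen. The 6 WT libraries came from Smchd1 WT/WT embryos. By label, 2 MD1 libraries were female and 2 male, and 3 WT libraries were female and 3 male. Libraries are named here by genotype, labelled sex and replicate number (MD1 female 4). No treatment was given, and the labels do not say how many embryos entered a library or whether embryos shared a litter, so p-values measure only the spread between these samples.

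Forkhead proteins bind DNA through a shared winged-helix domain. Foxc1 and Foxc2 act in neural crest and mesodermal mesenchyme and in vessels, and are needed for the eye, skull and heart. Foxd1 marks mesenchymal and forebrain territories and is best known from kidney stroma and the retina. Foxf1 and Foxf2 are mesenchymal genes that respond to Hedgehog signals from neighbouring epithelium, and Foxf2 is required for closure of the palate. Foxp1 and Foxp2 are mostly repressors that can pair with each other, with roles in heart, lung and brain, and FOXP2 in human is known for its link to speech. Foxe1 acts in the thyroid primordium and the oral epithelium and is also required for the palate.

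Because these genes are related, the reads of a gene could in principle have come from its paralog. No stretch of 75 bases, the length of the reads, was present in the annotated transcripts of 2 members. The windows of 300 coding bases that follow are those of the mesenchymal paralogs Foxf1 (chr8:121084528-121084827, plus strand) and Foxf2 (chr13:31626365-31626664, plus strand). They are aligned without gaps, lie in the part coding for the forkhead domain, and are shown to make visible how alike and how separable such paralogs are. Positions are on GRCm38, the sequence is that of the reference genome, and capitals mark the bases at which the pair differs. The windows were identical at 93.0% of the bases, with a longest shared run of 41 bases.
Foxf1: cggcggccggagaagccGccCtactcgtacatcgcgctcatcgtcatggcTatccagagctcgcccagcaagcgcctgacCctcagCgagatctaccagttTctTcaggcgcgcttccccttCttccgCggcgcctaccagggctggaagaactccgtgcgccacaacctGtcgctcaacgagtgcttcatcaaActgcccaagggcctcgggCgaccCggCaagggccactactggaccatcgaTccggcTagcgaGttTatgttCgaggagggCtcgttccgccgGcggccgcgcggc
Foxf2: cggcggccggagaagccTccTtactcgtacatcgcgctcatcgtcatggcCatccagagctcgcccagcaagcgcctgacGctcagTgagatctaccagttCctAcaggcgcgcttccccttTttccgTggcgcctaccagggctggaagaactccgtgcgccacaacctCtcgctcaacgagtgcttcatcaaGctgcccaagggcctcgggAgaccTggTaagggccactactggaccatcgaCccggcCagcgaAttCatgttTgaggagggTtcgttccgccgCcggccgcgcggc
The corresponding windows of Foxp1 and Foxp2 were identical at 80.3%, with a longest shared run of 29 bases. Other annotated genes overlapped some members: small models lay inside Foxf1 and Foxf2, the antisense gene Gm12446 overlapped Foxe1, and 3.16% of the exon bases of Foxp1 were also in Gm20696 or Gm49348. The library kit does not mark strand, so reads from such overlaps cannot be assigned.

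The genotype check was clear in every library. Smchd1 had 55.3, 99.9, 67.2 and 91.9 CPM (counts per 1000000 of the scaled library size) in the MD1 libraries, against 229 to 265 CPM in the WT libraries, a log2 fold change of -1.65 ± 0.15 (SE; edgeR quasi-likelihood test, adjusted p = 0.000746). Depth ran from 4195119 counts in MD1 male 3 to 24125084 in WT male 3. The library labelled MD1 female 1 had 88.2 CPM of the Y-linked gene Ddx3y and 204 CPM of Xist, and Eif2s3y, Kdm5d and Uty were also at the level of WT males, whereas WT females had 0 CPM of Ddx3y and 2590 to 2700 CPM of Xist, so its sex label is in doubt. Over all expressed autosomal genes, 2 MD1 libraries stood apart. On the first principal component MD1 female 4 was at -89, against -8.5 to 35.7 in the other libraries, and on the second MD1 male 3 was at 69.5, against -22.5 to 21.2. In MD1 female 4 the mean log2 level over 21 genes of the hypoxia response was 3.34 above the WT mean, against -0.47 to 1.12 in the WT libraries, and the score over 10 erythroid markers was 2.22, against -0.35 to 0.28. Markers of yolk sac endoderm and liver, tissues outside the face, were high in the library labelled MD1 female 1 and in MD1 female 4: Afp had 239 and 68.4 CPM there, 0 CPM in both MD1 males and at most 21.2 CPM in WT, and the 10 markers summed to 3.29 to 393 CPM in MD1 and 5.87 to 36.5 CPM in WT. All 14 facial mesenchyme markers, such as Alx1, Prrx1 and Twist1, were detected in every library. Their summed level was 971 to 1610 CPM in MD1 and 1370 to 1910 CPM in WT, with the lowest value in MD1 female 4.

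In WT tissue the members differed widely in level. On the deposited log2 RPKM scale, which divides by gene length, Foxc1 had the highest level, 3.52 ± 0.26 (SD, n = 6 WT libraries). Foxc2 followed at 2.99 ± 0.14 and Foxd1 at 2.93 ± 0.18. A middle group held Foxf1 (2.65 ± 0.33), Foxp1 (2.63 ± 0.12) and Foxf2 (2.41 ± 0.25), while Foxp2 lay at 1.37 ± 0.27 and Foxe1 at -0.06 ± 0.61. The MD1 means on the same scale kept Foxc1 at the top (3.79 ± 0.24, SD, n = 4) and Foxe1 at the bottom (0.01 ± 0.89). The same WT order came from CPM divided by the merged exon length of all transcripts. That length was 13751 bases over 31 transcripts for Foxp1, and 5844 bases in 1 transcript for Foxc1. Genes with many transcripts can therefore be placed too low. Without length, Foxp1 had the highest WT mean of the members, 94.5 CPM, against 75.5 CPM for Foxc1.

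Neighbours in that WT order were compared within libraries. Foxc1 exceeded Foxc2 by 0.53 ± 0.23 log2 RPKM (SD), Foxf2 exceeded Foxp2 by 1.04 ± 0.24, and Foxp2 exceeded Foxe1 by 1.43 ± 0.72, each in 6 of 6 libraries. For each of these 3 pairs the exact paired sign-flip permutation test (two-sided) gave the smallest p that 6 libraries allow, which was 0.0729 after adjustment over the 7 pairs. No neighbouring pair passed 0.05, but with 6 libraries a pair could pass only if most of the 7 pairs reached that smallest p. The order was also taken from the same libraries and rests on the gene length used, so the test cannot decide whether single neighbours differ. The remaining 4 neighbours were closer than their spread: Foxc2 over Foxd1 by 0.06 ± 0.11, Foxd1 over Foxf1 by 0.28 ± 0.33, Foxf1 over Foxp1 by 0.02 ± 0.29 and Foxp1 over Foxf2 by 0.22 ± 0.29 (exact permutation p from 0.0938 to 0.906).

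**Figure D1:**
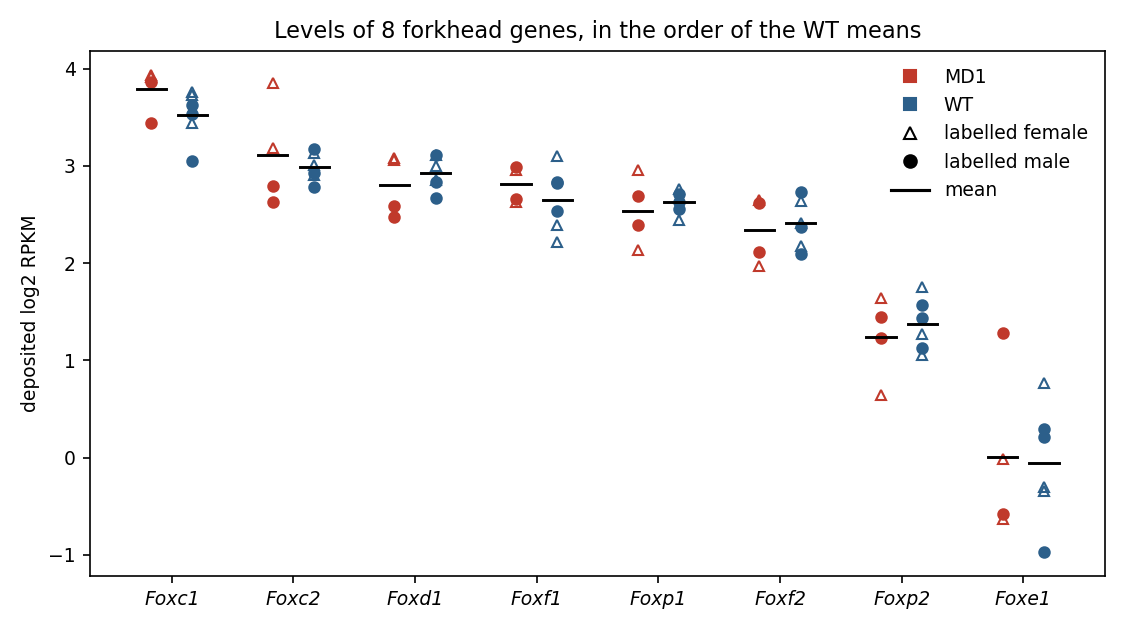
Deposited log2 RPKM (vertical axis) of each member, with genes in the order of their WT means; each point is a library (red MD1, n = 4, blue WT, n = 6, open triangles labelled female, filled circles labelled male) and bars are means. Foxc1 has a WT mean of 3.52 and Foxe1 one of -0.06, and MD1 and WT points overlap for every gene.

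No member passed the threshold between MD1 and WT. Of 8 members, 0 had an adjusted p of 0.05 or less in edgeR, and the background was 0.0777% of the 15452 autosomal genes tested (12 genes). DESeq2 also called 0 of the 8, with 51 genes called in all. At an unadjusted p under 0.05 there was 1 member, Foxc1, and 9.79% of all tested genes. The log2 fold change was above 0 for 6 of 8 members, with a median of 0.07, against 50.5% of all tested genes and a median of 0.00 (Foxf2 and Foxp1, at 0.00 and 0.01, were below 0 with total count scaling). Groups overlapped for all 8 members, and 2.05% of the tested genes had groups that did not. In bulk tissue, fewer cells of a type and less RNA per cell cannot be told apart.

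**Figure D2:**
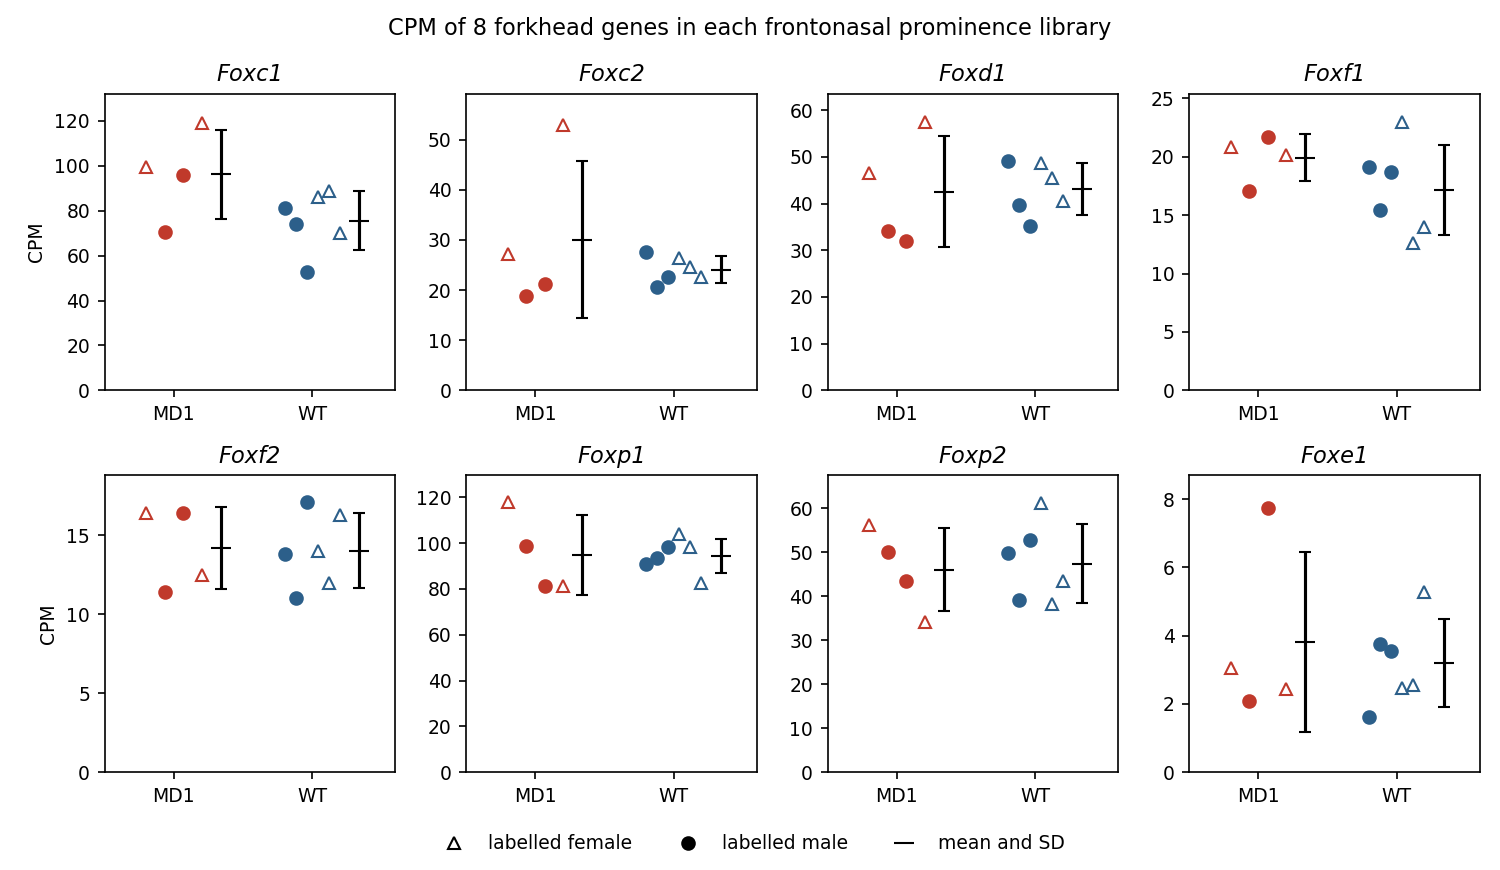
CPM (vertical axes, from 0) of each member in every library; MD1 (n = 4) is left of WT (n = 6), open triangles are labelled female, filled circles labelled male, and the bar is the mean with its SD. MD1 female 4 is the highest point for Foxc1 (119), Foxc2 (52.9) and Foxd1 (57.5), and every pair of groups overlaps.

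Foxc1, a regulator of eye, skull and vessel development, had 99.2, 70.5, 95.9 and 119 CPM in MD1 libraries 1 to 4, against 52.9 (lowest), 77.6 (median) and 88.6 CPM (highest) in WT. All but MD1 male 2 lay above the highest WT library. The means were 96.1 ± 19.7 CPM in MD1 (SD, n = 4) and 75.5 ± 13.1 CPM in WT (SD, n = 6), and the log2 fold change was 0.35 ± 0.16 (SE; 95% interval 0.01 to 0.69; edgeR adjusted p = 0.502). Without MD1 female 4 the log2 fold change was 0.24, and over all alternatives the adjusted p ran no lower than 0.263. WT libraries themselves differed 1.68-fold, and the WT spread of Foxc1 exceeded that of 97.5% of the 2524 tested genes within 0.5 log2 CPM of its level.

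Foxc2, its paralog in vessels and mesenchyme, had 27.3, 18.8, 21.3 and 52.9 CPM in MD1 libraries 1 to 4, against 20.6, 23.7 and 27.6 CPM (lowest, median, highest) in WT. A single library, MD1 female 4, lay far above every other, and MD1 male 2 lay below all WT libraries. The means were 30.1 ± 15.6 CPM in MD1 (SD, n = 4) and 24.1 ± 2.64 CPM in WT (SD, n = 6), with a log2 fold change of 0.34 ± 0.24 (95% interval -0.19 to 0.86; edgeR adjusted p = 0.606). Without MD1 female 4 it was -0.07. The 3 libraries with the most Foxc2 (MD1 female 4, then WT male 1 at 27.6 and the library labelled MD1 female 1 at 27.3 CPM) were also those with the highest hypoxia scores, at 3.34, 1.12 and 1.07. WT female 4 came next, with 26.4 CPM of Foxc2, but had the lowest hypoxia score of all libraries, at -0.47. The part of the hypoxia response in the Foxc2 level was not tested.

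Foxd1, a gene of facial and renal mesenchyme and of the forebrain, had 46.5, 34.1, 31.9 and 57.5 CPM in MD1 libraries 1 to 4, against 35.1, 43.0 and 49.2 CPM (lowest, median, highest) in WT. Both MD1 males lay below the lowest WT library and MD1 female 4 above the highest. The means were 42.5 ± 11.9 CPM in MD1 (SD, n = 4) and 43.1 ± 5.59 CPM in WT (SD, n = 6), with a log2 fold change of -0.01 ± 0.16 (95% interval -0.36 to 0.35; edgeR adjusted p = 0.991). This near-zero mean combined values on both sides of WT, and it was -0.16 without MD1 female 4 and -0.37 without both MD1 libraries labelled female.

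Foxf1, a Hedgehog-responsive mesenchymal gene, had 20.8, 17.1, 21.7 and 20.1 CPM in MD1 libraries 1 to 4, against 12.6, 17.1 and 23.0 CPM (lowest, median, highest) in WT. All MD1 values lay within the WT range. The means were 19.9 ± 2.03 CPM in MD1 (SD, n = 4) and 17.1 ± 3.87 CPM in WT (SD, n = 6), with a log2 fold change of 0.21 ± 0.17 (95% interval -0.15 to 0.57; edgeR adjusted p = 0.64). Foxf1 and Foxc1 were the members whose fold change stayed above 0 under all 21 alternatives, from 0.07 to 0.31 for Foxf1 and from 0.13 to 0.47 for Foxc1.

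Foxf2, the palate gene, had 16.4, 11.4, 16.4 and 12.5 CPM in MD1 libraries 1 to 4, against 11, 13.9 and 17.1 CPM (lowest, median, highest) in WT, so every MD1 value was inside the WT range. The means were 14.2 ± 2.62 CPM in MD1 (SD, n = 4) and 14.0 ± 2.35 CPM in WT (SD, n = 6), with a log2 fold change of 0.00 ± 0.16 (95% interval -0.35 to 0.36; edgeR adjusted p = 0.992). Within WT, Foxf2 was highest in WT male 3 (17.1) and WT female 6 (16.3 CPM). Those libraries also had the most Barx1, a marker of the maxillary and mandibular arches, at 25.6 and 20.3 CPM. The other WT libraries had 1.88 to 6.34 CPM of Barx1, and the MD1 libraries 1.45 to 3.61. The arch markers did not move as a whole in WT. Lhx6 (30.6 and 21.9 CPM) and Lhx8 (44.1 and 35.6 CPM) were also highest in WT male 3 and WT female 6. Gsc was instead highest in WT female 4 (10.2 CPM), and Dlx6 (11.2 CPM) and Dlx4 (0.753 CPM) in WT male 1. Over all 10 arch markers the summed level was 25.9 to 56.6 CPM in MD1 and 29.9 to 118 CPM in WT, while Hand1 and Hand2 were at 1.24 and 0.428 CPM in the library labelled MD1 female 1, at 7.07 and 0.76 CPM in MD1 female 4, and at or near 0 in all others. The part of arch tissue in the Foxf2 level was not tested.

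Foxp1, a transcriptional repressor that heart and lung development require, had 118, 98.6, 81.4 and 81.2 CPM in MD1 libraries 1 to 4, against 82.4, 95.8 and 104 CPM (lowest, median, highest) in WT. The library labelled MD1 female 1 lay above all WT libraries, and MD1 male 3 and MD1 female 4 just below them. Markers of yolk sac and liver were high in the library labelled MD1 female 1 and in MD1 female 4. The latter had the lowest Foxp1 and the highest Foxc1 (119 CPM) of all libraries. MD1 male 3, with 0 CPM of the marker Afp, was also above all WT libraries for Foxc1 (95.9 CPM). The part of yolk sac and liver tissue in the Foxp1 and Foxc1 levels was not tested. The means were 94.9 ± 17.5 CPM in MD1 (SD, n = 4) and 94.5 ± 7.42 CPM in WT (SD, n = 6), with a log2 fold change of 0.01 ± 0.11 (95% interval -0.23 to 0.25; edgeR adjusted p = 0.978). This was the narrowest interval among the members, and corresponds to 0.851-fold to 1.19-fold. The WT coefficient of variation of Foxp1, 7.85%, was also the smallest.

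Foxp2, its partner gene, had 56.3, 50, 43.5 and 34.2 CPM in MD1 libraries 1 to 4, against 38.2, 46.7 and 61.2 CPM (lowest, median, highest) in WT. MD1 female 4 alone fell outside the WT range, below it. The means were 46.0 ± 9.41 CPM in MD1 (SD, n = 4) and 47.5 ± 8.88 CPM in WT (SD, n = 6), with a log2 fold change of -0.04 ± 0.16 (95% interval -0.40 to 0.31; edgeR adjusted p = 0.933).

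Foxe1, the thyroid and oral epithelium gene, was the scarcest member, with 15 to 87 counts per library. It had 3.04, 2.09, 7.73 and 2.43 CPM in MD1 libraries 1 to 4, against 1.61, 3.05 and 5.27 CPM (lowest, median, highest) in WT. MD1 male 3, the shallowest library, lay above all others on 32 counts. The means were 3.83 ± 2.63 CPM in MD1 (SD, n = 4) and 3.20 ± 1.28 CPM in WT (SD, n = 6), with a log2 fold change of 0.13 ± 0.40 (95% interval -0.74 to 1.00; edgeR adjusted p = 0.916). That interval allows 0.600-fold to 1.99-fold. The WT libraries spanned a 3.26-fold range in CPM, on 15 to 87 counts per library, and counting alone would give a coefficient of variation of 16.5%. Without MD1 male 3 the value was -0.34.

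**Figure D3:**
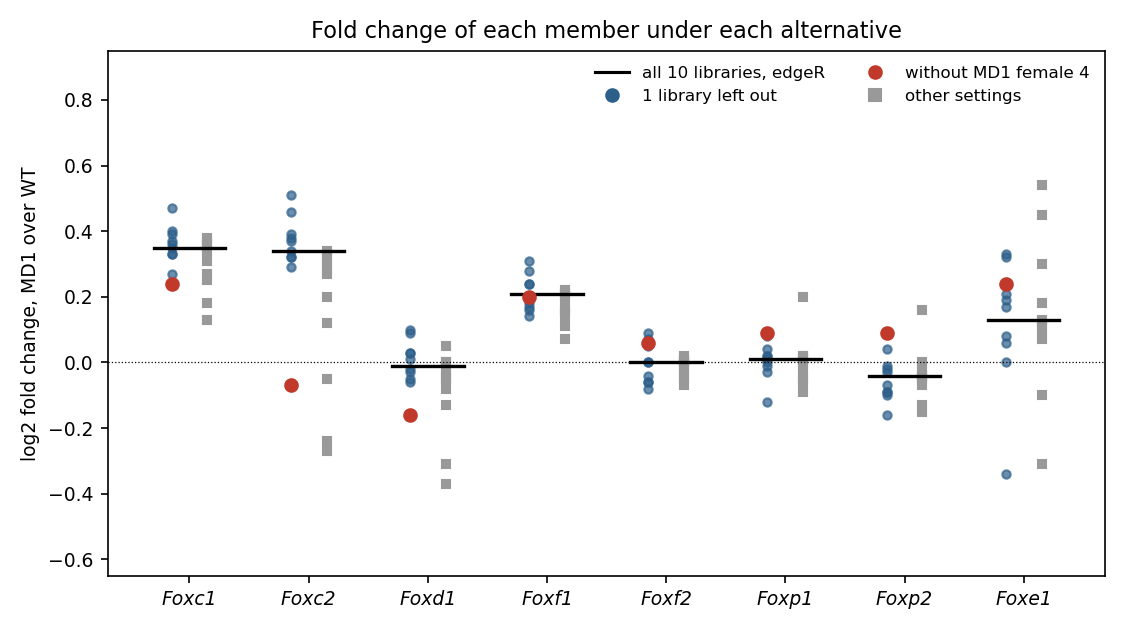
Log2 fold change of MD1 over WT (vertical axis) for each member: black bars use all 10 libraries, blue circles leave out 1 library, red circles leave out MD1 female 4, and grey squares are other settings. Leaving out MD1 female 4 moved Foxc2 to -0.07, compared with 0.34 for all libraries, while Foxc1 and Foxf1 stayed above 0 throughout.

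Members left the WT range in MD1 libraries, as many tested genes did, and some did so in more than 1 library. Foxc1 was above the range in 3 MD1 libraries. Foxd1 and Foxp1 were each above it in 1 and below it in 2, and Foxc2 was above it in 1 and below it in 1. MD1 female 4 was above all WT libraries for 3 members (Foxc1, Foxc2 and Foxd1) and below all of them for 2 (Foxp1 and Foxp2), against 35.4% and 35.6% of all tested genes. MD1 male 3 was above for Foxc1 and Foxe1 and below for Foxd1 and Foxp1, against 23.3% and 27.2% of tested genes. The library labelled MD1 female 1 was above for Foxc1 and Foxp1, against 13.6% of tested genes, and MD1 male 2 was below for Foxc2 and Foxd1, against 21.7%.

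The members followed several patterns across libraries. Over the 10 libraries, Pearson's r of log2 CPM was 0.83 between Foxc2 and Foxd1, and 0.86 without MD1 female 4. It was 0.67 between Foxc1 and Foxc2, and 0.41 without that library. Between Foxp1 and Foxp2 it was 0.67, and 0.57 without it. Foxf1 and Foxp2, both highest in WT female 4, had r = 0.93 over the 6 WT libraries and 0.51 over all 10. The paralogs Foxf1 and Foxf2 had r = 0.37, and Foxe1 ran opposite to Foxd1 (r = -0.59). These values are descriptions over few libraries that share depth and composition, and no test was made.

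Ranking all 15981 other expressed genes by r gave the closest patterns. For Foxc2 these were Rab3gap1 (r = 0.99, and 0.95 without MD1 female 4) and Med20 (0.98, and 0.92 without it). For Foxc1 they were Zc3h13 and 1700010I14Rik (0.94 each). For Foxd1 they were Gm49125 (0.96) and Pigp (0.94), for Foxf1 Trim24 (0.94) and 3830406C13Rik (0.90), and for Foxf2 Rnf157 (0.89) and Specc1 (0.86). For Foxp1 they were Scara5 (0.90) and Nol3 (0.89), for Foxp2 Smarcc2 (0.97) and Ebf1 (0.96), and for Foxe1 Adat3 (0.95) and Mydgf (0.94). No member was among the closest patterns of another, and high values are common among the best of so many correlations over 10 libraries.

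Of the 2 MD1 libraries labelled female, only MD1 female 4 lacked Y-linked reads (0 CPM of Ddx3y). It had 6720 CPM of Xist, against 2590 to 2700 CPM in WT females. The study states that homozygous Smchd1 null females die as embryos because X inactivation fails. With these limits and the doubt about the library labelled MD1 female 1 in mind, the MD1 effect was compared between libraries labelled female and male. In edgeR 0 of 8 members passed the test of that difference, and the background was 0.0% of 15452 genes (DESeq2 called 72 genes and 0 members). At an unadjusted p under 0.05 there were 2 members, Foxc2 and Foxd1, against 10.4% of genes. Foxc2 averaged 40.1 ± 18.1 CPM in MD1 libraries labelled female (SD, n = 2), of which the library labelled MD1 female 1 has Y-linked reads, and 24.6 ± 1.92 CPM in WT females (SD, n = 3), and 20.1 ± 1.71 CPM in MD1 males (SD, n = 2) and 23.6 ± 3.61 CPM in WT males (SD, n = 3). The difference of its log2 effects, female minus male, was 0.94 ± 0.35 (SE; edgeR adjusted p = 0.464). For Foxd1 it was 0.52 ± 0.23 (edgeR adjusted p = 0.481). Without the library labelled MD1 female 1, where MD1 female 4 alone stands for the MD1 libraries labelled female and is assumed to vary like the other groups, Foxc2 was called (1.34 ± 0.23, edgeR adjusted p = 0.00229), but so were 22.5% of all genes.

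No member was called between the sexes in WT. Comparing WT females with WT males, edgeR called 0 of 8 members (background 0.0%), with 0 members and 1.27% of genes at an unadjusted p under 0.05, and DESeq2 called 14 genes and 0 members. The log2 differences, female minus male, ran from -0.09 ± 0.22 (SE) for Foxf1 to 0.24 ± 0.18 for Foxc1.

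Several members lie beside other forkhead genes, and these clusters were read together. On chromosome 8, Foxf1 (121084386 to 121088144), Foxc2 (121116171 to 121118895) and Foxl1 (121127940 to 121130644) follow each other on the plus strand. Foxl1, a gene of gut and skeletal mesenchyme, had 5.66, 3.19, 3.62 and 3.50 CPM in MD1 libraries 1 to 4, against 2.84, 4.74 and 4.86 CPM (lowest, median, highest) in WT, with overlapping groups and a log2 fold change of -0.08 ± 0.23 (edgeR adjusted p = 0.911). Mthfsd, between Foxf1 and Foxc2, averaged 32.8 ± 1.06 CPM in MD1 (SD, n = 4) and 33.7 ± 2.90 CPM in WT (SD, n = 6), so the excess of Foxc2 in MD1 female 4 was not seen in this neighbour (32.6 CPM there). Gm20388, a model that spans the whole cluster, had a log2 fold change of -0.16 ± 0.12 (edgeR adjusted p = 0.645).

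Fendrr, a long noncoding RNA gene transcribed away from Foxf1, begins 1276 bases from it. It had 7.70, 6.28, 0.725 and 8.74 CPM in MD1 libraries 1 to 4, against 2.55, 5.64 and 10.2 CPM (lowest, median, highest) in WT, and its log2 fold change was 0.07 ± 0.44 (edgeR adjusted p = 0.961). MD1 male 3 was below all other libraries, although its Foxf1 level of 21.7 CPM was the highest among MD1. Of the counts on the 2 genes, Fendrr took 3.23% in MD1 male 3 (3 Fendrr and 90 Foxf1 counts; exact 95% interval 0.67% to 9.14%, which covers counting error only). In the other MD1 libraries the share was 26.9% to 30.3%, and in WT it was 16.9% to 33.0%.

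**Figure D4:**
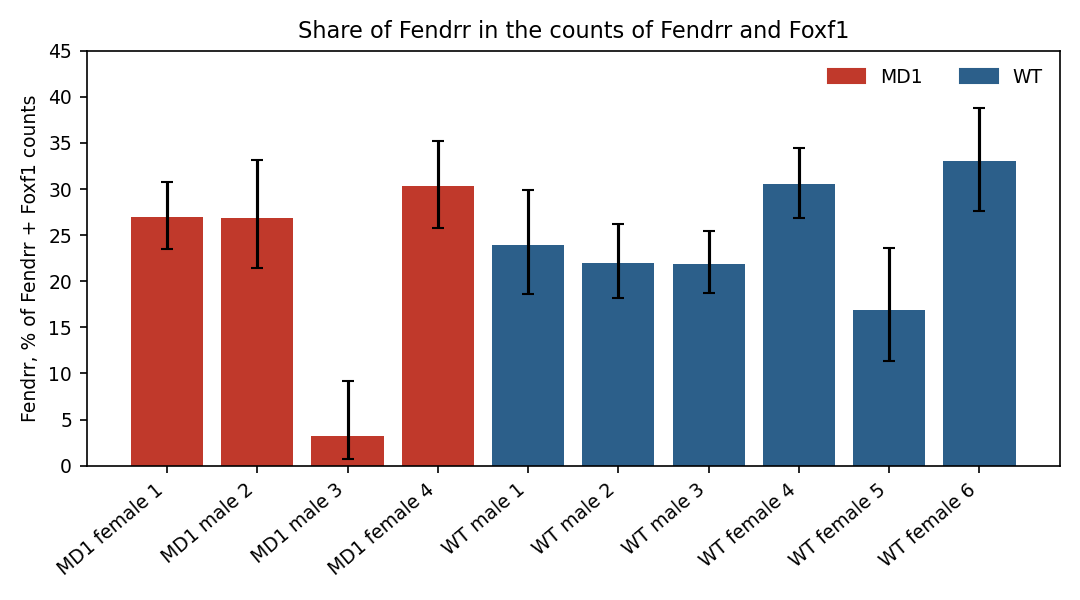
Share of Fendrr in the summed counts of Fendrr and Foxf1 (vertical axis, percent) in each library, MD1 in red and WT in blue, with exact 95% binomial intervals. MD1 male 3 has 3.23%, and the remaining libraries have 16.9% to 33.0%.

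On chromosome 13, Foxq1 (31556134 to 31560976), Foxf2 (31625816 to 31631403) and Foxc1 (31806633 to 31812476) form a second cluster. Foxq1, known from epithelia and hair, had 2.52, 2.59, 3.14 and 3.95 CPM in MD1 libraries 1 to 4, against 1.83, 2.12 and 2.44 CPM (lowest, median, highest) in WT. It was the only named forkhead gene whose groups did not overlap, against 2.05% of all tested genes. Foxq1 was named for its large change and had only 13 to 60 counts per library. Its log2 fold change was 0.50 ± 0.21 (edgeR adjusted p = 0.498), and 0.32 without MD1 female 4. Gmds, downstream of Foxc1, had a log2 fold change of 0.03 ± 0.12, and the noncoding gene 1700018A04Rik, 24 bases from Foxf2 on the other strand, one of -0.18 ± 0.39. Near Foxd1, Btf3 averaged 110 ± 10.7 CPM in MD1 (SD, n = 4) and 95.3 ± 5.36 CPM in WT (SD, n = 6; log2 fold change 0.21 ± 0.08, edgeR adjusted p = 0.496), and Gm9828 had a log2 fold change of -0.17 ± 0.18. Near Foxe1, the values were -0.09 ± 0.20 for Trmo and 0.61 ± 0.35 for the erythroid gene Hemgn (edgeR adjusted p = 0.543), whose highest library was MD1 female 4 (52.8 CPM) and which was 0.03 without it. Gm20696, which overlaps Foxp1, had 0.15 ± 0.26. The other 7 genes within 50000 bases (Gm11379, Gm48883, Gm37609, Gm21976, Gm11378, Gm20705 and Gm12446) were below the filter on low counts.

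Among 36 other forkhead genes, 18 autosomal ones were tested and 0 passed in edgeR or DESeq2, against the same background of 0.0777%. Of these, 11 were above 0 and the median log2 fold change was 0.18. At an unadjusted p under 0.05 there were 2, Foxq1 and Foxl2, against 9.79% of all tested genes. Foxo4 and Foxp3 passed the filter but are on the X chromosome, and 4 genes (Foxb2, Foxi1, Foxn1 and Foxr1) had 0 counts in all libraries.

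Outside the 8, Foxp4, Foxm1, Foxk2, Foxo4 and Foxk1 were among the forkhead genes with the highest WT log2 RPKM. The cell cycle factor Foxm1 averaged 177 ± 20.3 CPM in MD1 (SD, n = 4) and 189 ± 8.50 CPM in WT (SD, n = 6; log2 fold change -0.10 ± 0.08). Foxp4, from the same subfamily as Foxp1 and Foxp2, had a log2 fold change of -0.13 ± 0.09, Foxk2 of -0.15 ± 0.11 and Foxk1 of -0.04 ± 0.07. X-linked Foxo4 averaged 75 ± 4.42 CPM in MD1 (SD, n = 4) and 75.7 ± 8.21 CPM in WT (SD, n = 6).

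In several of the largest differences of the family, MD1 female 4 was the extreme library. Foxo3, a stress-responsive factor, had 61.8, 43.5, 39.1 and 197 CPM in MD1 libraries 1 to 4, against 41.2, 45.6 and 78.5 CPM (lowest, median, highest) in WT. MD1 female 4 lay far above the rest, followed by WT male 1 and the library labelled MD1 female 1, the same libraries that led the hypoxia score. Its log2 fold change was 0.77 ± 0.39 (edgeR adjusted p = 0.518), and -0.03 without MD1 female 4. Foxd2 had 22.9, 15.5, 15.7 and 57.9 CPM in MD1 libraries 1 to 4, against 16.8, 18.9 and 25.4 CPM (lowest, median, highest) in WT (log2 fold change 0.54 ± 0.32, and -0.08 without MD1 female 4). Foxj3 reached 120 CPM in MD1 female 4, against at most 66.6 CPM elsewhere (log2 fold change 0.32 ± 0.18, and 0.01 without MD1 female 4). Foxl2, a gene of periocular and ovarian tissue, had its lowest level in MD1 female 4, with 4.28, 3.29, 4.83 and 0.836 CPM in MD1 libraries 1 to 4, against 4.09, 4.90 and 11.4 CPM (lowest, median, highest) in WT (log2 fold change -0.96 ± 0.44, edgeR adjusted p = 0.506, and -0.62 without MD1 female 4).

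**Figure D5:**
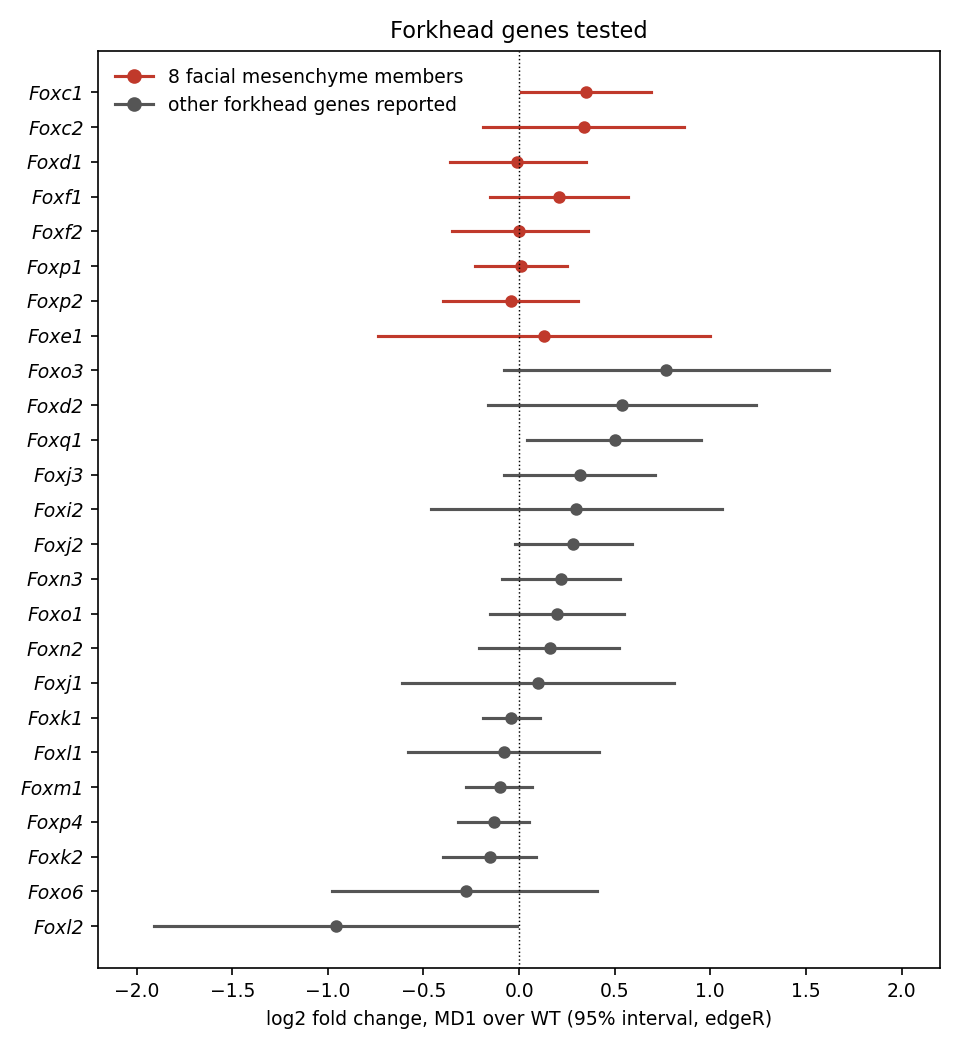
Log2 fold change of MD1 over WT (horizontal axis) with its 95% interval from edgeR for the 8 members (red) and the other forkhead genes reported (grey). The interval of Foxc1 runs from 0.01 to 0.69, those of the other 7 members include 0, and Foxl2 lies furthest to the left at -0.96.

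Upstream of Foxf1 and Foxf2 stands Shh, the secreted ligand that reaches facial mesenchyme from epithelium and forebrain. Of 14 Shh pathway genes tested, 7 were above 0, against 50.5% of all tested genes, 0 passed in edgeR or DESeq2, against 0.0777% of all tested genes in edgeR, and the median log2 fold change was 0.01. Differences among the largest reported were those of Shh (-0.38 ± 0.22, edgeR adjusted p = 0.545) and the co-receptor gene Boc (0.31 ± 0.16, adjusted p = 0.518). In both, MD1 female 4 was the extreme library, with 16.7 CPM of Shh and 120 CPM of Boc, and without it the values were -0.15 for Shh and 0.06 for Boc. At an unadjusted p under 0.05 there was 1 gene, Sufu (-0.22 ± 0.09), named after its value was seen, against 9.79% of all tested genes.

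Genes that have been placed downstream of a member in other work were counted in the same way. Of 11 tested, 6 were above 0, against 50.5% of all tested genes, 0 passed in edgeR or DESeq2, against 0.0777% of all tested genes in edgeR, and the median log2 fold change was 0.02. At an unadjusted p under 0.05 there was 1, Kdr, against 9.79% of all tested genes. The largest were the vascular genes Dll4 (0.65 ± 0.36, edgeR adjusted p = 0.534) and Kdr (0.53 ± 0.19, adjusted p = 0.496) and the ligand gene Bmp4 (0.50 ± 0.26, adjusted p = 0.518). All 3 peaked in MD1 female 4, at 48.7, 257 and 83.1 CPM, against at most 16.4, 145 and 36.4 CPM in any other library. Without it the log2 fold changes were -0.10 for Dll4, 0.21 for Kdr and 0.01 for Bmp4. The score over endothelial markers was also highest in that library, at 0.68 against -0.18 to 0.17 in WT. These markers did not move as a whole. Flt1 had 276 CPM there, against at most 38.7 CPM in WT. Cldn5 was instead lowest there, at 12.7 CPM against 16.5 to 32.5 CPM in WT. Tie1 and Sox18 lay within the WT range, and the other detected markers were highest there. Summed over the 12 markers, the level was 329 to 760 CPM in MD1 and 336 to 420 CPM in WT, and Etv2 had no counts. The part of endothelial tissue in the Dll4, Kdr and Bmp4 levels was not tested.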

How the data were processed

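RNA-seq of 10 frontonasal prominence libraries (TruSeq RNA kit v2) was analysed from tables that the authors deposited as raw counts per gene and as log2 RPKM, with normalisation to library size and gene length before the logarithm. Per the study's methods, Trim Galore 0.4.4 removed adapters, HISAT2 2.0.5 mapped reads to GRCm38.p6, and SeqMonk counted them. Whether counting used strand was not given in the sources used here. The authors' 4 genotype means were not used. Of 35591 rows, 49 repeated a gene identifier and were dropped, keeping the row with more reads, and 27 symbols stored as dates were restored.

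Counts were tested with edgeR 4.0.16 (R 4.3.3): filterByExpr by genotype (15982 genes), TMM scaling, the quasi-likelihood test of MD1 against WT on 15452 autosomal genes, Benjamini-Hochberg adjustment and a threshold of 0.05. Labelled sexes were compared in a model with 4 group means. Alternatives used DESeq2 1.42.0, limma 3.58.1 (voom, and the log2 RPKM values), RLE or total count scaling, no filter, sex as a covariate, a replicate block, and libraries left out. Scores and correlations used log2 CPM with a prior count of 2. Total counts per library ran from 4195119 to 24125084. The edgeR fit was also run on simulated counts with the same spread for every gene and no outlying library, which does not test it under the conditions of these data. Neighbouring levels were compared with scipy 1.17.1. Sequences and exons came from GRCm38 with the GENCODE M21 annotation.

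Named genes were the members, other forkhead genes past the threshold or among the 6 highest in WT or the 6 with the largest change, genes within 50000 bases, the 2 most correlated genes per member, and the genes with the 3 largest changes in the Shh and downstream lists. The members and lists were chosen with earlier results of these data known. A few items that the rule selects are not reported here.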

Additional observations from a re-analysis of the deposited data

Results flagged for a closer look

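Samples that stood apart within their group were sought in 68 groups of 4 or 6 libraries with Dixon's test at 95%. In all, 9 were found. Chance alone would meet the test in about 1 of 20 independent groups. The groups here share libraries, and some genes were named for large changes, so that rate cannot be set against the 9. Among the members there was 1, Foxe1, whose 7.73 CPM in MD1 male 3 lay far above the other MD1 libraries. The same library had the lowest share of Fendrr in the counts of Fendrr and Foxf1, at 3.23%.

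In MD1 female 4 the high values were those of Foxo3 (197 CPM), Dll4 (48.7 CPM) and Bmp4 (83.1 CPM). Among WT libraries, WT male 1 was high for Foxo3 (78.5 CPM) and Foxj3 (66.6 CPM) and low for Gm20696 (1.61 CPM), and WT male 3 was high for 1700018A04Rik (2.65 CPM).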

How the results depend on the processing

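No forkhead member and no other forkhead gene passed the threshold under any of the 21 alternatives of the genotype comparison, and the lowest adjusted p of a member was 0.263. Of 168 member values under these alternatives, 132 kept their sign and 36 changed it. No call was made among the members in WT females against WT males, nor among neighbouring levels, although with 1 library left out the sign-flip test cannot reach 0.05 and says nothing about those levels. The absence of a call does not show that a member was unchanged. There were only 4 MD1 libraries, of which 1 has a doubtful sex label and 2 stand apart over all genes.

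The count of autosomal genes called, 12 by edgeR, was 51 with DESeq2, 4 with limma on log2 RPKM, 0 with the replicate block, 6 without both MD1 libraries labelled female, 4 with males only, and 4 to 13 with 1 library left out. The cause was not tested. Leaving out the library labelled MD1 female 1 gave 1 member, Foxc2, in the test between sexes, where 1 library then stands for the MD1 libraries labelled female. Same-numbered MD1 and WT libraries showed little correlation of their deviations from the genotype means (r from -0.1182 to 0.0497). Those means include the MD1 libraries that stand apart, so low values cannot exclude a pairing, and the labels do not settle it. Under the replicate block Smchd1 was -1.69 (adjusted p = 0.142), Foxp1 -0.04, Gmds -0.01 and Fendrr -0.24. Log2 RPKM moved the median of all genes to -0.10.

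Signs changed as follows, in log2 fold change. Without both MD1 libraries labelled female the values were -0.27 for Foxc2, -0.05 for Foxf2, -0.06 for Foxp1, 0.05 for Foxk2, -0.27 for Foxo3, -0.32 for Foxd2, -0.01 for Foxj3, -0.03 for Gmds, 0.02 for Gm20388, -0.53 for Fendrr, 0.26 for 1700018A04Rik, -0.37 for Dll4 and -0.04 for Bmp4. With males only they were -0.24 for Foxc2, -0.04 for Foxf2, -0.05 for Foxp1, 0.01 for Foxk2, -0.38 for Foxo3, -0.41 for Foxd2, -0.04 for Foxj3, -0.03 for Gmds, 0.06 for Gm20388, -0.36 for Fendrr, 0.16 for 1700018A04Rik, -0.42 for Dll4 and -0.06 for Bmp4. Without MD1 male 3 and MD1 female 4, chosen after seeing the data, they were -0.05 for Foxc2, -0.01 for Foxf2, 0.16 for Foxp2, -0.31 for Foxe1, -0.01 for Foxd2, 0.08 for Foxl1, 0.08 for 1700018A04Rik, -0.02 for Dll4 and -0.04 for Bmp4. Scaling by total count gave -0.03 for Foxf2, -0.02 for Foxp1 and -0.01 for Gmds, and no filter gave -0.00 for Foxf2. Log2 RPKM gave -0.07 for Foxf2, -0.09 for Foxp1, -0.06 for Gmds and -0.44 for Fendrr. The voom fit gave 0.05 for Foxd1 and -0.10 for Foxe1, and sex as a covariate -0.01 for Fendrr.

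With 1 library left out, the median of the members ran from 0.02 to 0.19, and the values from -0.07 to 0.51 for Foxc2, -0.16 to 0.10 for Foxd1, -0.08 to 0.09 for Foxf2, -0.12 to 0.09 for Foxp1, -0.16 to 0.09 for Foxp2, -0.34 to 0.33 for Foxe1, -0.03 to 1.00 for Foxo3, -0.08 to 0.74 for Foxd2, -0.04 to 0.11 for Gmds, -0.10 to 0.37 for Fendrr, -0.33 to 0.02 for Foxl1, -0.52 to 0.12 for 1700018A04Rik, -0.22 to 0.07 for Trmo and -0.10 to 0.87 for Dll4. The median of the members was -0.03 without both MD1 libraries labelled female.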
